A study of Mus musculus with 17 samples.

Results

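The genes described here are those of serine, folate and thymidylate synthesis: *Phgdh*, *Psat1*, *Psph*, *Shmt1*, *Shmt2*, *Mthfd1*, *Mthfd2*, *Mthfd1l* and *Tyms*. They were chosen by symbol, and all 9 were found among the 21848 gene symbols that the count matrices shared. All 9 passed the filter on low counts in each fit. In the time course, GC B cells came from CD45.1/1 hosts primed with OVA and immunized in the footpad with NP-OVA in alum, which had received NP-specific B1-8hi B cells from CD45.2/2 mice with the alleles *Col1a1* tetO-H2B-mCherry/WT and *Igh* B1-8hi/+ and a Vav-tTA transgene. The Vav promoter drives tTA in blood cells, and the mCherry serves to count divisions once DOX is given. In this model a minor part of the transferred cells carries DEC-205 and the rest are *Ly75*-/-, so that they lack it. The paper gives the time-course cells, with and without treatment, as DEC-205+ GC B cells. Treated mice received anti-DEC-OVA in the footpad at day 7, which loads OVA on DEC-205+ B cells. The groups were day 7 without treatment (0 h, 9 mice), day 9 without and with treatment (48 h, 6 and 9 mice) and day 10 without and with treatment (72 h, 8 and 7 mice), from a larger experiment of 25 mice and a smaller one of 14. In the CDK2 experiment, GC B cells with a *Rosa26* DHB-tdTomato reporter, with or without H2B-GFP, were taken 72 h after anti-DEC-OVA and sorted by image into cytoplasmic reporter (C, CDK2 high) and nuclear reporter (N, CDK2 low). Both populations held cells of the same 7 mice. A first experiment had 3 mice each at day 7, at day 10 and at day 10 with treatment, and in it the treated cells were sorted as DEC-205+ and low in mCherry. Mice of all experiments were male and female and aged 5 to 12 weeks.

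Serine is made from a glycolytic intermediate by Phgdh, which oxidizes it, Psat1, which adds the amino group, and Psph, which removes the phosphate. Serine hydroxymethyltransferases, Shmt1 in the cytosol and Shmt2 in mitochondria, pass a carbon of serine to tetrahydrofolate. Mthfd2 and Mthfd1l turn that carbon into formate inside mitochondria, and the cytosolic enzyme Mthfd1 takes formate back onto folate for purines and thymidylate. Tyms then uses methylene-tetrahydrofolate to make dTMP, a precursor of DNA. The pathway is known for its use in dividing lymphocytes, and Tyms is the target of fluorouracil.

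In the GRCm39 annotation of GENCODE, *Phgdh* lies at chr3:98220484-98255047, *Psat1* at chr19:15882039-15924701, *Psph* at chr5:129841925-129864513, *Shmt1* at chr11:60661185-60708167 and *Shmt2* at chr10:127352266-127358323. *Mthfd1* lies at chr12:76301984-76366588, *Mthfd2* at chr6:83282673-83302890, *Mthfd1l* at chr10:3922870-4117081 and *Tyms* at chr5:30263198-30278633. *Mthfd1* and *Mthfd1l* are on the plus strand and the other members on the minus strand. The values below count UMIs per gene from 5′ libraries and do not separate transcripts. To show motifs found upstream of some members, the 250 bases before the start of the canonical transcript are printed for 3 of them. These are *Psat1* (chr19:15902424-15902673), *Mthfd2* (chr6:83294605-83294854) and *Tyms* (chr5:30278628-30278877), each from the minus strand of GRCm39, 5′ to 3′. They show both motifs found in the members, and neither motif is in all 3. Capitals mark a CCAAT box (CCAAT or ATTGG) in the former 2 and an E-box (CACGTG) in *Tyms*.
*Psat1*: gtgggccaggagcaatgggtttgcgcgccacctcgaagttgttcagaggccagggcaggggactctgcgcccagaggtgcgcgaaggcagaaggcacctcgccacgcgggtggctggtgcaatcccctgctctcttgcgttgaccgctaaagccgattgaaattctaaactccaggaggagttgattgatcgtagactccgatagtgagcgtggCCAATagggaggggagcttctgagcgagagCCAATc
*Mthfd2*: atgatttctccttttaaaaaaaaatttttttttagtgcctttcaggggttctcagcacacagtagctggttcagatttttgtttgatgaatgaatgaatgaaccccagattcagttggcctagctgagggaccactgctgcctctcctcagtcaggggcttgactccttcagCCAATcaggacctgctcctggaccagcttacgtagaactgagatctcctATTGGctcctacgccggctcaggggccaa
*Tyms*: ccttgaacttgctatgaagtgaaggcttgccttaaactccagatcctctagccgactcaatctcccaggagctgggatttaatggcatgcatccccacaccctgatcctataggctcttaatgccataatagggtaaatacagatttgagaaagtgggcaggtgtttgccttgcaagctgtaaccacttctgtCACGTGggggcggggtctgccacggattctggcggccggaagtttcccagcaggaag
A CCAAT box on either strand was in 5 of the 9 members' windows (*Phgdh*, *Psat1*, *Shmt1*, *Mthfd1* and *Mthfd2*) and in 36.5% of the 21770 windows of protein-coding genes. The E-box was in 1 of 9 members and 6.26% of all windows. Neither the ATF4-type letters TGATGNAA (3.39% of all windows) nor E2F-type letters (TTTGGCGC, TTTCCCGC, TTTGGCGG or TTTCCCGG, 3.20%) were in any of the 9 windows. These matches describe letters in 250 bases and no binding was measured.

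Between 292 and 1045 cells per mouse were kept in the time course, with 1984430 to 13373200 UMIs in all, and 278 to 1679 cells in the CDK2 experiment. The filter on mitochondrial UMIs met 3114 of 13187 cells assigned to mice in the smaller experiment and 350 of 13976 in the larger one. Cells 48 h after treatment held more RNA counts and were less often called G1 by their phase genes. Their median UMIs per cell ranged over mice from 10004 to 14467, against 5030 to 7455 in untreated mice at 48 h, and cells called G1 were 17.2% to 24.4% of cells against 46.7% to 56.9%. Of the 7 GC B cell markers, the sum was 1619.78 to 1857.44 CPM at 48 h with treatment and 1794.38 to 1939.21 CPM without. The 6 T cell markers found summed to 47.3 to 106.3 CPM over the time course, of which *Lck* made up most, and *Cd3e*, *Cd4* and *Cd8a* were at 0 in 13, 13 and 19 of 39 mice. The 6 plasma cell markers summed to 1418.55 to 2444.67 CPM at 48 h with treatment and to 966.8 to 1914.4 CPM without, and the 6 myeloid markers summed to at most 30.9 CPM. The 6 naive or memory B cell markers summed to 99.9 to 204.1 CPM with treatment and 247.3 to 433.5 CPM without at 48 h, the 7 light zone markers to 405.4 to 585.0 CPM and 840.0 to 1045.6 CPM, and the 4 dark zone markers to 630.3 to 804.2 CPM and 852.1 to 1022.9 CPM. The 5 pan B cell markers summed to 3605 to 4774 CPM and 4901 to 6319 CPM, and the T cell markers to 47.3 to 65.6 CPM and 67.6 to 106.3 CPM. The sums of the naive or memory, light zone, dark zone, pan B cell and T cell lists were lower with treatment without overlap at 48 h. The part of these markers, of depth and of phase in the results was not tested. The pools shared 0 to 43 cell barcodes in pairs, none of them with the same mouse name. The time-course experiments named mice unlike each other and, M10 aside, unlike the CDK2 sort, so that such a match was mostly not possible. Both populations of the CDK2 sort had the same mouse names and shared 5 barcodes.

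Of the 9 genes, 8 were higher 48 h after anti-DEC-OVA than in untreated mice of the same day. In the fit across 10270 genes, 24.8% were called higher (edgeR, adjusted p under 0.05) and 47.3% in either direction, so that a call alone was common. The median log2 difference was 0.39 over the 9 members and -0.0046 over all genes tested. *Shmt1* was the member that was not called (log2 difference 0.35 ± 0.15, adjusted p = 0.0579), and its adjusted p ran from 0.0259 to 0.152 when single mice were left out. *Shmt1* was called with cells of equal weight (0.57, adjusted p = 0.00270 by limma), and by edgeR with the compared groups alone (0.34, adjusted p = 0.0129), with no filter on cells (0.38, adjusted p = 0.0414), by highest hashtag (0.37, adjusted p = 0.0470) and with no filter on low counts (0.35, adjusted p = 0.0499). In the larger experiment alone 7 members were called higher, and in the smaller one 5 (*Psat1*, *Psph*, *Shmt2*, *Mthfd2* and *Tyms*). In summed counts, more cells that express a gene and more of its RNA per cell cannot be told apart.

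All 3 enzymes of serine synthesis rose at 48 h. *Phgdh* ranged from 124.2 CPM (UMI counts scaled by TMM to a common library size) over a median of 142.2 to 165.3 CPM in 6 untreated mice and from 164.5 over 188.4 to 208.1 CPM in 9 treated mice. The ranges overlapped by less than 1 CPM in the pooled data and not within either experiment, and the log2 difference was 0.39 ± 0.09 (SE, adjusted p = 6.53e-04). *Psat1* ranged from 82.98 over 88.5 to 110.6 CPM without treatment and from 114.9 over 134.6 to 154.4 CPM with it. Every treated mouse was above every untreated mouse, with a log2 difference of 0.52 ± 0.07 (adjusted p = 1.14e-07). *Psph* ranged from 28.7 over 35.5 to 44.3 CPM and from 43.5 over 50.6 to 59.6 CPM. Its ranges, too, overlapped by less than 1 CPM in the pooled data and not within experiments (log2 difference 0.50 ± 0.07, adjusted p = 9.79e-08). At 48 h the larger experiment had 4 untreated and 6 treated mice and the smaller one 2 and 3. The share of all genes without overlap within an experiment was not counted.

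Of the mitochondrial folate enzymes, *Shmt2* had the largest difference. It ranged from 94.2 over 108.9 to 142.7 CPM in untreated mice and from 153.9 over 161.8 to 187.7 CPM in treated mice, without overlap (log2 difference 0.56 ± 0.09, adjusted p = 1.54e-06). *Mthfd2*, the dehydrogenase of the mitochondrial arm, ranged from 71.8 over 85.2 to 93.1 CPM and from 95.5 over 110.05 to 115.6 CPM, again without overlap (0.35 ± 0.07, adjusted p = 2.94e-05). *Mthfd1l*, which releases formate, moved least of the 9. It ranged from 54.0 over 65.3 to 86.9 CPM and from 63.3 over 75.3 to 89.4 CPM, and the groups overlapped within both experiments (0.13 ± 0.05, adjusted p = 0.0307). Its call was lost without mouse M07 and again without mouse M09, both untreated at 48 h, with adjusted p up to 0.145. The call was also lost in B1-8hi cells (0.080), with cells of equal weight (0.10), with no experiment term, with no filter on low counts and with the compared groups alone. The log2 difference was 0.18 in the larger experiment alone and 0.0057 in the smaller one.

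For both cytosolic enzymes the groups overlapped in the larger experiment (4 untreated and 6 treated mice) and not in the smaller one (2 and 3 mice). The share of all genes without overlap among so few mice was not counted. *Mthfd1* ranged from 41.4 over 49.9 to 60.0 CPM in untreated mice and from 52.2 over 63.7 to 80.3 CPM in treated mice (log2 difference 0.33 ± 0.09, adjusted p = 2.79e-03). Its call was lost in B1-8hi cells only, taken by their receptor chains (0.21, adjusted p = 0.0752 by edgeR) and in each experiment alone (0.26 in the larger, adjusted p = 0.0642, and 0.41 in the smaller, adjusted p = 0.0509). *Shmt1* ranged from 19.5 over 28.6 to 32.4 CPM and from 28.1 over 33.1 to 42.7 CPM. It was counted with 92 to 199 UMIs per untreated mouse and 218 to 528 UMIs per treated mouse.

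*Tyms*, which makes the DNA precursor dTMP, ranged from 59.2 over 65.9 to 74.1 CPM in untreated mice and from 94.0 over 101.5 to 108.6 CPM in treated mice. The gap between the groups was wider than the whole range of either, and the log2 difference was 0.60 ± 0.08 (adjusted p = 6.81e-08), the largest of the 9 members. With *Psat1*, *Shmt2* and *Mthfd2* it made up the 4 members whose groups did not overlap, against 5.31% of all genes that were higher without overlap.

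**Figure D1:**
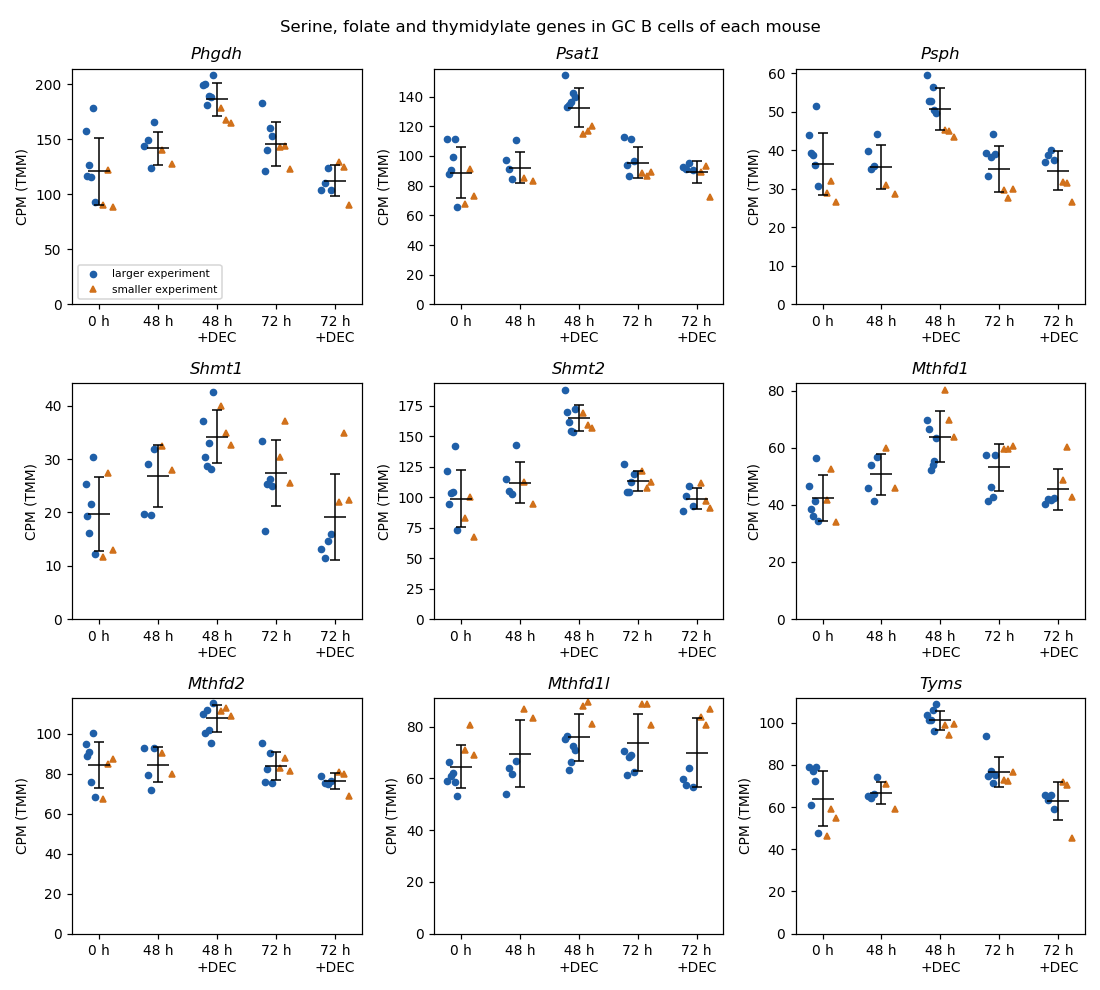
Each point is 1 mouse, with the larger experiment as circles and the smaller one as triangles, and the bars are the mean and SD of each group. The vertical axis is CPM after TMM scaling, from 0, and the columns are 0 h, 48 h and 72 h without or with anti-DEC-OVA (+DEC). The treated 48 h mice have the highest mean for each gene, with values from 94.0 to 108.6 CPM for *Tyms*.

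At 72 h the direction was the opposite for some members. *Phgdh*, *Shmt1* and *Tyms* were lower in treated than in untreated mice, in a fit that called 3.76% of genes lower and 8.66% in either direction, and 6 were not called. *Phgdh* ranged from 121.1 over 143.1 to 182.8 CPM in 8 untreated mice and from 90.2 over 109.9 to 129.2 CPM in 7 treated mice (log2 difference -0.36 ± 0.10, adjusted p = 0.0161). *Shmt1* ranged from 16.6 over 25.9 to 37.1 CPM and from 11.4 over 15.9 to 34.8 CPM (-0.60 ± 0.18, adjusted p = 0.0317). *Tyms* ranged from 71.2 over 75.0 to 93.8 CPM and from 45.1 over 65.6 to 71.9 CPM (-0.27 ± 0.08, adjusted p = 0.0335). The groups of *Tyms* overlapped by less than 1 CPM in the pooled data and not within experiments (5 untreated and 4 treated mice in the larger one, 3 and 3 in the smaller one). The other 6 differences lay between -0.25 (*Mthfd1*) and 0.017 (*Psph*), and no member was without overlap (0.234% of genes were lower without overlap).
All 3 were called in the larger experiment alone, yet the calls rested on few mice. The number of members called fell to 0 without treated mouse M23 or M26, and to 1 without untreated mouse M18 or treated mouse M24 or M25. It was 0 in the smaller experiment alone, where the log2 differences were -0.23 for *Phgdh*, -0.28 for *Shmt1* and -0.21 for *Tyms*, against -0.45, -0.87 and -0.31 in the larger one, and 5 in a fit of these groups alone. All 3 calls were also lost with no experiment term and with cells of equal weight, where the log2 differences were -0.22 for *Phgdh*, -0.31 for *Shmt1* and -0.16 for *Tyms*. The call of *Tyms* was lost by highest hashtag (-0.26, adjusted p = 0.0537 by edgeR). GC B cell markers summed to 1823 to 1951 CPM in untreated and 1959.9 to 2160.5 CPM in treated mice at 72 h, without overlap. The sums of the other 7 marker lists, the median UMIs per cell and the share of G1 cells overlapped in the pooled data. Within the smaller experiment the median UMIs per cell did not overlap (4709 to 5431 untreated and 5495 to 6399 treated). The part of the GC B cell markers and of depth in the result was not tested.

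Among treated mice, all 9 members were lower at 72 h than at 48 h, where 24.8% of genes were called lower and 48.9% in either direction. The median log2 difference was -0.54 over the members and 0.014 over all genes. The 72 h mice of *Phgdh*, *Psat1*, *Psph*, *Shmt2*, *Mthfd2* and *Tyms* all lay below the 48 h mice, against 6.06% of genes that were lower without overlap. *Shmt1* differed by -0.94 ± 0.17 (adjusted p = 1.00e-05), *Shmt2* by -0.72 ± 0.09 (adjusted p = 7.20e-09) and *Phgdh* by -0.71 ± 0.09 (adjusted p = 5.59e-08). *Tyms* differed by -0.66 ± 0.08 (adjusted p = 5.89e-09) and *Mthfd1l* by -0.17 ± 0.05 (adjusted p = 6.03e-03). The other 4 lay between -0.54 and -0.49. In the smaller experiment alone 7 were called, with *Shmt1* at -0.49 and *Mthfd1l* at -0.035. The call of *Mthfd1l* was also lost with cells of equal weight (-0.019) and with no experiment term (-0.15). Depth, phase calls, markers and the share of B1-8hi cells moved with this difference. Median UMIs per cell were 10004 to 14467 at 48 h and 5495 to 8673 at 72 h in treated mice, and cells called G1 were 17.2% to 24.4% and 38.0% to 57.0%. GC B cell markers summed to 1619.8 to 1857.4 CPM and 1959.9 to 2160.5 CPM, light zone markers to 405.4 to 585.0 CPM and 720.7 to 982.1 CPM, and T cell markers to 47.3 to 65.6 CPM and 67.8 to 92.8 CPM, each without overlap, while the sums of the other 5 lists overlapped. The pairing of receptor chains that marks B1-8hi cells was found in 70.5% to 77.7% of cells at 48 h and 61.9% to 69.2% at 72 h in the larger experiment, and in 53.1% to 58.0% and 32.2% to 42.3% in the smaller one. In a fit of B1-8hi cells only, all 9 members were still called lower, and fits within phases are given below. Beyond these fits, the part of depth, phase, markers and this share in the result was not tested.

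The effect of treatment at 48 h minus that at 72 h was tested as 1 contrast and was above 0 for all 9 members, where 17.0% of genes were called higher and 31.4% in either direction. It was 0.95 ± 0.24 for *Shmt1* (adjusted p = 2.31e-03), 0.87 ± 0.11 for *Tyms* (adjusted p = 1.42e-06), 0.75 ± 0.13 for *Shmt2* (adjusted p = 2.87e-05) and 0.75 ± 0.14 for *Phgdh* (adjusted p = 6.82e-05). The lowest was 0.24 ± 0.07 for *Mthfd1l* (adjusted p = 0.0130), a call that was lost with cells of equal weight (0.056, adjusted p = 0.739 by limma), with no experiment term (adjusted p = 0.356) and in B1-8hi cells only (adjusted p = 0.0678). In the smaller experiment alone 5 of 9 were called. The 4 that were not were *Shmt1* (0.51, adjusted p = 0.363 by edgeR, against 1.26 in the larger experiment), *Phgdh* (0.56, adjusted p = 0.0618), *Mthfd1* (0.67, adjusted p = 0.0537) and *Mthfd1l* (0.051, adjusted p = 0.833). This contrast uses the treated and untreated mice of both times, so that it shares mice with the comparisons above.

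**Figure D2:**
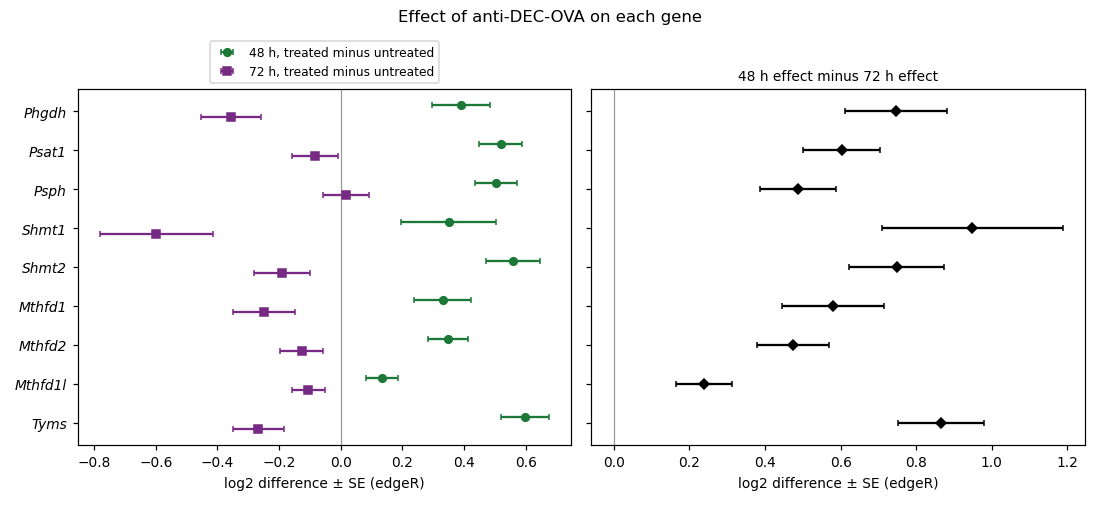
The left panel gives the log2 difference of treated minus untreated mice at 48 h (circles) and 72 h (squares), and the right panel the 48 h effect minus the 72 h effect, each with the SE of the edgeR fit. The 48 h values lie between 0.13 and 0.60, and 8 of the 9 values at 72 h lie below 0.

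Without treatment none of the 9 was called by edgeR between day 7 and day 9 (0.136% of genes were called) or between day 7 and day 10 (3.95%). At an unadjusted p under 0.05 these comparisons held 968 and 1839 of 10270 genes, and DESeq2 called 0 and 2 members. *Tyms* ranged from 46.5 over 61.0 to 78.9 CPM at day 7, a spread of 13.2 CPM (SD, n = 9) that was wider than in any later group. At day 10 against day 7, the log2 difference was 0.25 ± 0.08 for *Tyms* (adjusted p = 0.0552) and 0.28 ± 0.09 for *Mthfd1* (adjusted p = 0.0706), and between 0 and 4 members were called when single mice were left out. All 4 (*Phgdh*, *Mthfd1*, *Mthfd1l* and *Tyms*) were called without day-10 mouse M19, 3 without day-7 mouse M05, 2 without day-7 mouse M01, and 1 without M02, M03, M07, M21 or E3.

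Counted per cell, the members rose further at 48 h, as did the total. *Phgdh* had 2.71 ± 0.41 UMIs per cell (SD, n = 9) with treatment and 1.20 ± 0.24 (n = 6) without. *Shmt2* had 2.40 ± 0.31 and 0.953 ± 0.240 UMIs per cell, and *Tyms* 1.47 ± 0.16 and 0.564 ± 0.092. At 72 h *Tyms* had 0.556 ± 0.123 UMIs per cell with treatment and 0.640 ± 0.132 without. These values carry the depth of each cell, and no test was made on them.

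Cell-cycle phase, called from other genes with *Tyms* taken off the S-phase list, moved with the groups. At 48 h, S-phase cells were 32.2% to 39.5% of treated and 18.4% to 26.0% of untreated cells, and G2/M cells 39.3% to 47.1% and 22.9% to 33.5%. The members themselves differed by phase. In untreated mice at 48 h, *Tyms* had 8.26 ± 2.15 CPM (SD, n = 6) in G1 cells, 111.3 ± 10.1 CPM in S-phase cells and 82.5 ± 9.8 CPM in G2/M cells. *Shmt1* had 7.41 ± 2.38, 54.4 ± 13.7 and 21.4 ± 4.0 CPM in these phases, *Phgdh* 70.8 ± 6.9, 199.2 ± 29.8 and 158.7 ± 18.3 CPM, and *Psph* 26.0 ± 7.7, 44.6 ± 9.1 and 37.2 ± 7.2 CPM. These levels are a description, since phases were called from the same cells.

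Within a phase, fewer members differed at 48 h. In G1 cells only *Psat1* was called higher (log2 difference 0.43 ± 0.12, adjusted p = 0.0170), where 4.07% of genes were. In S-phase cells only *Psph* was (0.29 ± 0.09, adjusted p = 0.0315), where 5.69% of genes were. In G2/M cells *Shmt2* (0.52 ± 0.10, adjusted p = 3.82e-04), *Psph* (0.41 ± 0.09, adjusted p = 1.19e-03), *Tyms* (0.28 ± 0.08, adjusted p = 0.0121) and *Psat1* (0.26 ± 0.06, adjusted p = 9.62e-04) were, where 9.42% of genes were. The median over the 9 members was 0.19 in G1, 0.041 in S and 0.26 in G2/M cells, against 0.39 in all cells. The SE ran from 0.10 to 0.32 in G1 cells and from 0.057 to 0.14 in S-phase cells. Differences between phases were not tested. *Tyms* in S-phase cells had 111.3 ± 10.1 CPM without and 120.5 ± 6.7 CPM (n = 9) with treatment, a log2 difference of 0.12 ± 0.08 (adjusted p = 0.310).

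In cells called S or G2/M most members also fell later. Between 48 h and 72 h of treatment, all 9 members were lower in G2/M cells (14.2% of genes were), from -0.96 for *Shmt1* to -0.22 for *Mthfd1l*. In S-phase cells 7 were lower (12.1% of genes were), with *Psph* at -0.54 ± 0.10 (adjusted p = 2.92e-05) and *Phgdh* at -0.40 ± 0.08 (adjusted p = 2.28e-04), while *Tyms* (-0.033 ± 0.074) and *Mthfd1l* (0.063 ± 0.058) were not called. In G1 cells none was called (4.05% of genes were lower by edgeR), with values from -0.22 to 0.34, of which *Mthfd1l* had the smallest adjusted p (0.107).

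**Figure D3:**
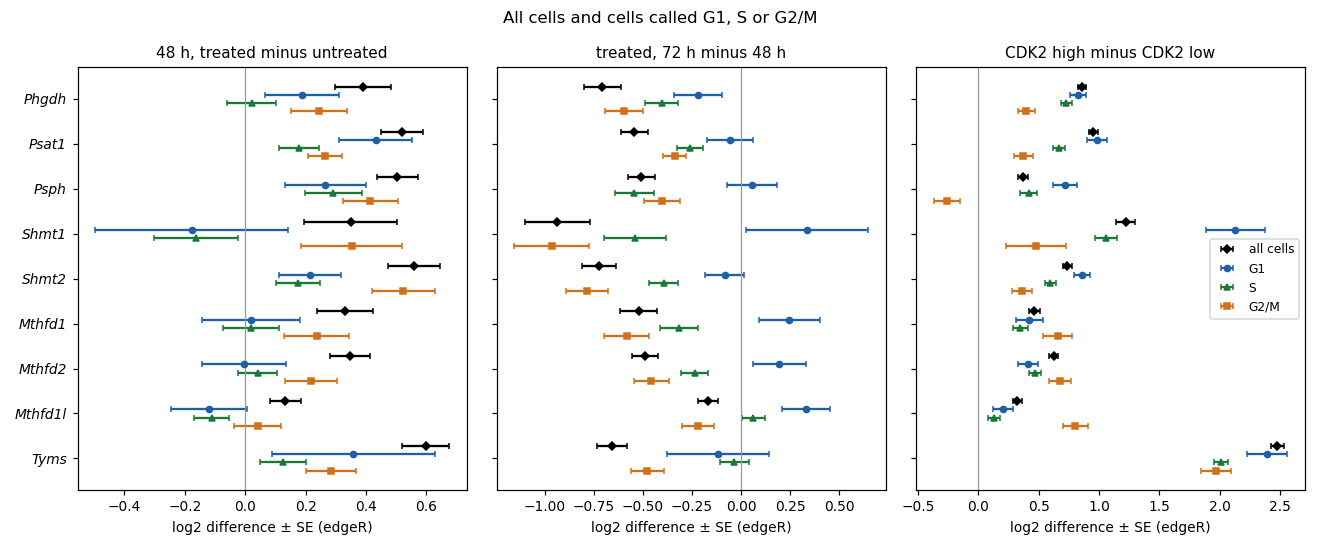
Points are log2 differences with the SE of the edgeR fit, for all cells (diamonds) and for cells called G1 (circles), S (triangles) or G2/M (squares), in 3 comparisons with their own horizontal scale. In the left panel the S-phase values lie between -0.16 and 0.29, and in the right panel *Tyms* stays between 1.97 and 2.48.

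In CPM, all 9 genes were higher in CDK2 high than in CDK2 low cells, in each of the 7 mice. The fit, with the mouse as a block, called 35.6% of 10596 genes higher and 73.3% in either direction, and the groups of all 9 members did not overlap, against 22.0% of genes that were higher without overlap. *Tyms* had the largest difference. It ranged from 105.6 over 113.7 to 116.5 CPM in CDK2 high cells and from 16.6 over 19.5 to 26.6 CPM in CDK2 low cells, and CDK2 high cells of a mouse had 4.23 to 7.02 times the level of its CDK2 low cells (log2 difference 2.48 ± 0.06, adjusted p = 9.29e-23). *Shmt1* ranged from 17.2 over 20.5 to 20.9 CPM and from 6.58 over 8.33 to 10.6 CPM (1.22 ± 0.08, adjusted p = 4.06e-13). *Psat1* ranged from 96.2 over 108.5 to 117.3 CPM and from 45.9 over 58.2 to 61.3 CPM (0.95 ± 0.04, adjusted p = 5.43e-18). *Phgdh* ranged from 128.1 over 140.0 to 145.5 CPM and from 68.2 over 76.0 to 84.9 CPM (0.86 ± 0.03, adjusted p = 2.13e-17). *Shmt2* ranged from 133.6 over 142.8 to 156.3 CPM and from 74.1 over 86.2 to 94.3 CPM (0.74 ± 0.03, adjusted p = 6.56e-16).

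The other 4 members differed less. *Mthfd2* had 93.1 ± 7.7 CPM in CDK2 high and 60.5 ± 6.1 CPM in CDK2 low cells (SD, n = 7), *Mthfd1* 44.8 ± 3.9 and 32.4 ± 3.0 CPM, *Psph* 39.2 ± 3.5 and 30.3 ± 2.5 CPM, and *Mthfd1l* 73.9 ± 3.8 and 59.6 ± 6.1 CPM. Their log2 differences ran from 0.32 ± 0.04 for *Mthfd1l* to 0.62 ± 0.04 for *Mthfd2*. Median UMIs per cell were 8939 to 11754 in CDK2 high and 10563 to 14838 in CDK2 low cells. Counted per cell, *Psph* had 0.403 ± 0.059 UMIs in CDK2 high and 0.437 ± 0.070 UMIs in CDK2 low cells, *Mthfd1* 0.457 ± 0.034 and 0.465 ± 0.058 UMIs, and *Mthfd1l* 0.754 ± 0.030 and 0.850 ± 0.036 UMIs, so that for these 3 genes the order per cell was the reverse of that of the CPM. *Tyms* had 1.15 ± 0.08 and 0.291 ± 0.051 UMIs per cell. Cells called G1 were 12.6% to 19.1% of CDK2 high and 52.7% to 63.3% of CDK2 low cells. The pairing that marks B1-8hi cells was found in 55.4% to 68.2% of CDK2 high and 52.8% to 67.5% of CDK2 low cells. Within G1 cells all 9 members were higher in CDK2 high cells (29.8% of genes were), as they were within S-phase cells (29.6%), and within G2/M cells 7 were (25.3%), where *Psph* was at -0.26 ± 0.11 (adjusted p = 0.0511). Phases and zones were called in each library on its own, so that a label need not mark the same state in both populations. This was not tested. *Tyms* had 149.8 ± 11.7 CPM in S-phase cells of the CDK2 high and 37.1 ± 5.0 CPM in those of the CDK2 low population. *Tyms* within G1 cells had 29.0 ± 7.5 and 5.03 ± 1.27 CPM (log2 difference 2.39 ± 0.17, adjusted p = 4.07e-17). Naive or memory B cell markers summed to 100.4 to 181.2 CPM in CDK2 high and 333.7 to 536.4 CPM in CDK2 low cells, light zone markers to 496.0 to 633.8 CPM and 1054.0 to 1365.7 CPM, and dark zone markers to 738.6 to 819.8 CPM and 1095.6 to 1289.6 CPM. Pan B cell markers summed to 3955 to 4541 CPM and 5896 to 6369 CPM, GC B cell markers to 1859 to 2015 CPM and 2122 to 2313 CPM, T cell markers to 44.1 to 66.8 CPM and 61.2 to 142.2 CPM, and myeloid markers to 4.21 to 6.53 CPM and 8.0 to 22.9 CPM. In a fit of cells called dark zone by their zone scores, all 9 members were still called higher in CDK2 high cells. The paper's own comparison of both populations was in dark zone cells. Beyond that fit, the part of these markers in the result was not tested. Each population was 1 library, so that population and library cannot be told apart.

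**Figure D4:**
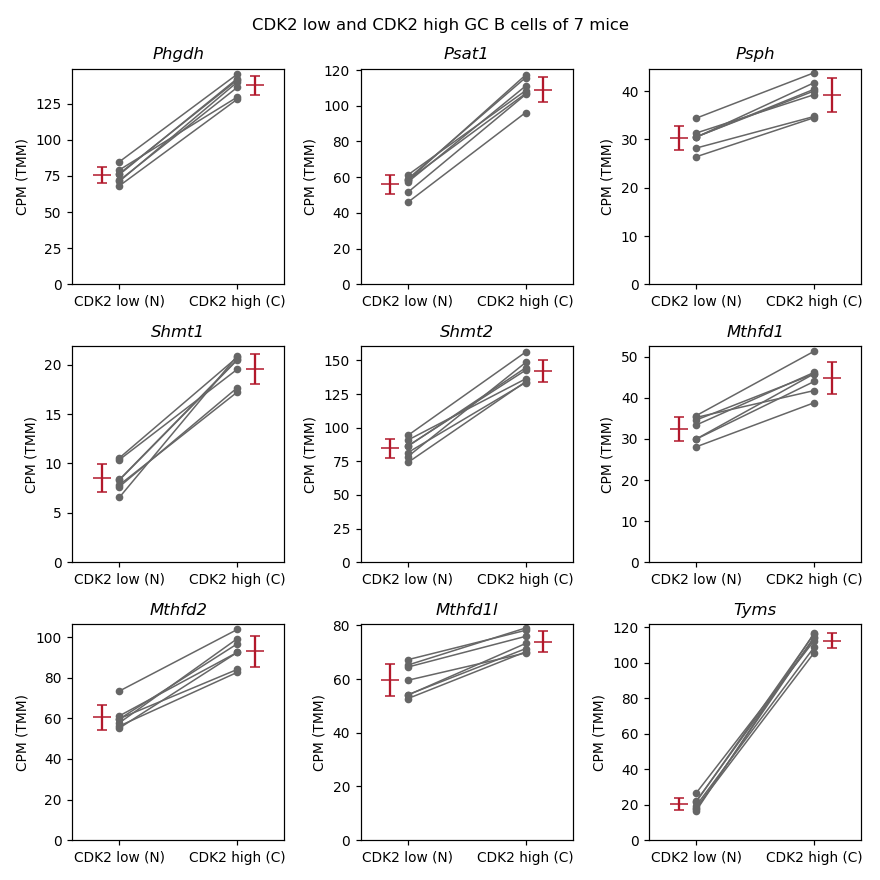
Each line joins CDK2 low (N) and CDK2 high (C) cells of 1 of 7 mice, in CPM after TMM scaling from 0, and the bars are the mean and SD. Every line rises, from 16.6 to 26.6 CPM up to 105.6 to 116.5 CPM for *Tyms*.

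In the first experiment, no member was called by edgeR at day 10 against day 7 (0.650% of 9078 genes were called, and 772 had an unadjusted p under 0.05) or with treatment at day 10 (1.95%, and 1084), and DESeq2 called none in either. In simulated data the treatment comparison of this experiment recovered 39.3% of log2 changes of 0.4 and 46.6% of those of 0.6. For treatment at 48 h in the time course these shares were 73.1% and 83.1%. *Psph*, *Shmt1* and *Mthfd1l* did not overlap between day 7 and day 10, where 13.1% of genes did not, and *Psat1* and *Psph* did not overlap with and without treatment, where 17.0% did not. *Tyms* had 56.7, 67.8 and 71.8 CPM in the 3 mice at day 7, 45.5, 83.9 and 85.8 CPM at day 10, and 70.1, 76.2 and 81.2 CPM at day 10 with treatment. The lowest value came from a mouse with 211 cells and 16 UMIs of *Tyms*. *Phgdh* had 142.2, 162.6 and 172.6 CPM at day 10 and 161.5, 172.8 and 173.6 CPM with treatment, a log2 difference of 0.06 ± 0.08 (adjusted p = 0.881). *Shmt1* had 11.7, 14.4 and 15.7 CPM at day 7 and 17.4, 27.0 and 34.1 CPM at day 10 (0.82 ± 0.22, adjusted p = 0.0828). It was called without day-10 mouse M4 (adjusted p = 0.0437). Median UMIs per cell were 1414 to 1992 here, below those of the time course, and treated cells were chosen for low mCherry, so that the treated groups of this experiment and the time course were not sorted alike. The pairing that marks B1-8hi cells was found in 0.817% to 3.46% of cells of a mouse with treatment at day 10 and in 8.06% to 13.8% without, so that it cannot be told from the receptor sequences whether this pool is mainly B1-8hi cells. At 48 h in the time course it was found in 70.5% to 77.7% of cells with treatment and 62.3% to 67.2% without in the larger experiment, and in 53.1% to 58.0% and 34.7% to 38.8% in the smaller one. In all 3 comparisons the groups did not overlap. In B1-8hi cells only, the 48 h calls of *Mthfd1* (0.21) and *Mthfd1l* (0.080) were lost by edgeR and the others were kept. Beyond that fit, the part of this share in the results was not tested.

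The rest of the pathway was read from lists of 85 genes, of which 84 were in the matrices and 67 passed the filter on low counts in the time course. At 48 h, 33 of these were higher (24.8% of all genes) and 8 lower (22.5%) with treatment, and the median log2 difference was 0.25, against 0.39 over the members. Purine synthesis had 11 of 13 higher and none lower, and the supply of dTTP and other deoxynucleotides 9 of 11 higher and none lower. *Rrm2*, the small subunit of ribonucleotide reductase, rose by 0.72 ± 0.11 (adjusted p = 1.06e-06) and *Rrm1*, its large subunit, by 0.57 ± 0.09 (adjusted p = 1.18e-06). *Dut*, which makes dUMP for Tyms, rose by 0.59 ± 0.08 (adjusted p = 4.63e-08).

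In this comparison 24.8% of all genes were called higher and 22.5% lower by edgeR. Of 10 tested genes that carry or use serine, 1 was higher and 4 lower, among them *Srr*, serine racemase (-0.55 ± 0.12, adjusted p = 1.54e-04), and *Sptlc2*, a subunit of the palmitoyltransferase that starts sphingolipids from serine (-0.30 ± 0.07, adjusted p = 3.53e-04). Of 10 tested genes of the list of ATF4, the stress-response factor, and its other targets, none was higher and 2 were lower by edgeR, against 22.5% of all genes. These were *Ddit4* (-0.85 ± 0.14, adjusted p = 6.09e-06) and *Ddit3* (-0.60 ± 0.15, adjusted p = 9.50e-04). The members *Phgdh*, *Psat1*, *Shmt2* and *Mthfd2*, which are also known as targets of ATF4, were higher. Folate reduction, retention and transport had 2 of 4 higher, the other folate enzymes 3 of 7 higher and 1 lower, the methionine cycle and transsulfuration 3 of 6 higher, and pyrimidine synthesis 4 of 6 higher and 1 lower.

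Between 48 h and 72 h of treatment, 40 of the 67 were lower (24.8% of all genes) and 10 higher (24.1%), with 13 of 13 purine genes and 10 of 11 deoxynucleotide genes lower. Among genes with average log2 CPM above 2, the largest falls were *Dctd*, dCMP deaminase (-0.89 ± 0.20, adjusted p = 2.88e-04), *Gcsh* of the glycine cleavage system (-0.81 ± 0.18, adjusted p = 1.56e-04), *Rrm2* (-0.72 ± 0.11, adjusted p = 4.59e-07) and *Dut* (-0.70 ± 0.07, adjusted p = 7.96e-10). *Ddit4* (0.54 ± 0.15, adjusted p = 2.74e-03), *Ddit3* (0.50 ± 0.15, adjusted p = 5.88e-03), *Sptlc2* (0.38 ± 0.07, adjusted p = 1.18e-05) and *Sesn2* (0.36 ± 0.15, adjusted p = 0.0456) rose.

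With treatment at 72 h, 1 gene of the 67 was higher (4.90% of all genes) and 1 lower (3.76%), and the higher one was *Dck*, deoxycytidine kinase (0.14 ± 0.04, adjusted p = 0.0188). The 48 h effect exceeded the 72 h effect for 31 of the 67 (17.0% of all genes) and was below it for 3 (14.4%). Among the 31 were *Rrm2* (0.84 ± 0.16, adjusted p = 9.04e-05), *Dctd* (0.82 ± 0.29, adjusted p = 0.0287), *Cth* of transsulfuration (0.75 ± 0.28, adjusted p = 0.0389) and *Gcsh* (0.71 ± 0.26, adjusted p = 0.0331). The 3 were *Srr* (-0.49 ± 0.17, adjusted p = 0.0283), *Sptlc2* (-0.38 ± 0.10, adjusted p = 2.87e-03) and *Samhd1*, which breaks down dNTPs (-0.26 ± 0.09, adjusted p = 0.0223). From day 7 to day 10 without treatment, *Asns*, asparagine synthetase, rose (0.66 ± 0.16, adjusted p = 0.0114) and *Dck* fell by 0.13 ± 0.04 (adjusted p = 0.0257), where 1.83% and 2.12% of all genes were called, and no gene of the lists was called by edgeR from day 7 to day 9 or in the first experiment.

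In CPM, 35 of the 67 listed genes were higher in CDK2 high cells (35.6% of all genes were) and 18 lower (37.8% of all genes were lower). *Rrm2* (2.72 ± 0.07, adjusted p = 1.90e-21), thymidine kinase *Tk1* (2.18 ± 0.05, adjusted p = 7.76e-23) and *Rrm1* (2.16 ± 0.05, adjusted p = 2.62e-23) were the largest rises, and *Ddit4* (-1.41 ± 0.10, adjusted p = 2.89e-12), *Sfxn3*, a mitochondrial serine carrier (-0.87 ± 0.13, adjusted p = 1.89e-06), *Sesn2* (-0.77 ± 0.12, adjusted p = 2.68e-06) and *Mthfs*, which returns formyl-folate to use (-0.72 ± 0.07, adjusted p = 4.16e-09), were the largest falls among genes with average log2 CPM above 2. Of the ATF4 list 1 of 10 was higher and 6 lower, and of the genes that carry or use serine 2 of 10 were higher and 6 lower.

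**Figure D5:**
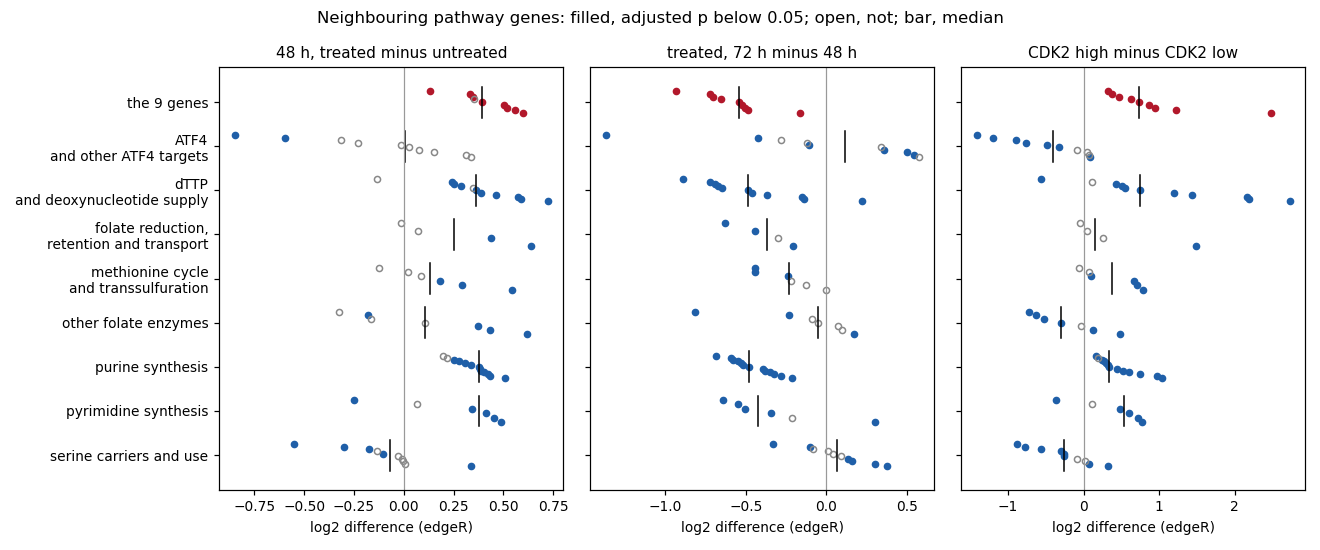
Each point is a gene of a list, at its log2 difference in 3 comparisons, filled where the edgeR adjusted p was under 0.05, and the bar is the median of the list. The 9 members are in the top row, where their medians are 0.39, -0.54 and 0.74. Purine and deoxynucleotide genes lie mostly on the members' side of 0, and ATF4 targets and serine carriers lie on both sides.

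Over the 39 mice of the time course, with the mean of each experiment removed, the genes of the whole table whose log2 CPM was most like that of the members were given by Pearson r. For *Phgdh* they were *Impdh2* (0.96), *Mif* (0.96) and *Npm1* (0.95), and for *Psat1* *Ran* (0.96), *Hdgf* (0.95) and *Cisd1* (0.95). For *Psph* they were *Magoh*, *Ywhae* and *Atp5b* (0.95 each), for *Shmt2* *Ran* (0.96), *Rpl14* (0.95) and *Rpl4* (0.95), and for *Shmt1* *Srm* (0.93), *Ifrd2* (0.93) and *Nolc1* (0.92). For *Mthfd1* they were *Qdpr* (0.93), *Nhp2* (0.92) and *Ifrd2* (0.91), for *Mthfd2* *Stip1* (0.94), *Eif2s1* (0.91) and *Hsp90aa1* (0.91), and for *Tyms* *Tagln2* (0.93), *Ran* (0.93) and *Rbbp7* (0.93). For *Mthfd1l* they were *Blm* (0.78), *Mybl2* (0.77) and *Mad1l1* (0.75), the lowest values of the 9 members. The 39 mice share groups, libraries and depth, and no test was made.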

How the data were processed

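Single-cell 10X 5′ libraries of GC B cells marked by hashtag antibodies were used. The authors deposited raw UMI counts from CellRanger on mm39 (7.1.0 in the header of the first experiment and 8.0.1 in the others, while the submitters' processing notes name 6.0.1 and Seurat 5.1.0). Here, cells were assigned to mice with HTODemux in Seurat 5.3.0 (quantile 0.99), and cells whose hashtags fitted no single mouse were left out, as were cells with fewer than 200 genes or 10% or more mitochondrial UMIs. Doublets within a mouse were not searched for. Of 9 mice listed for the CDK2 sort, 2 gave no cells. Phases and zones were scored in each pool on its own, phases by CellCycleScoring with *Tyms* off its list.

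Counts were summed per mouse, the replicate of all tests, and fitted with edgeR 4.0.16 in R 4.3.3 (filterByExpr, TMM, quasi-likelihood test, Benjamini-Hochberg adjustment over all genes, threshold 0.05), with a term for the experiment in the time course and the mouse as a block in the CDK2 sort, where both populations came from the same mice. The SE is the log2 difference divided by the root of F. Precision rests on the UMIs given per group. Members and lists were chosen with earlier results of these data known. Named list genes were those past the threshold among the 4 largest rises and falls with average log2 CPM above 2, and, for each member, the 3 genes with the highest Pearson r, and 1 gene that this rule names is not reported here. Alternatives were DESeq2 1.42.0, limma 3.58.1 on means over cells (log2 of CPM plus 1), other hashtag, cell and gene filters and other terms. Fits were also made of B1-8hi cells only, each experiment alone, cells of 1 phase, dark zone cells only in the CDK2 sort, and with each mouse left out. In the time course the last was added after seeing the data. The script was tested on simulated data. Immunoglobulin contigs only marked B1-8hi cells, and a pool with no gene expression was not used here.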

Additional observations from a re-analysis of the deposited data

Results flagged for a closer look

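The effect of treatment at 48 h differed from that at 72 h for each of the 9 genes with both experiments together, by the contrast tested in edgeR (log2 difference of the effects). It was 0.75 for *Phgdh*, 0.60 for *Psat1*, 0.49 for *Psph*, 0.95 for *Shmt1* and 0.75 for *Shmt2*. It was 0.58 for *Mthfd1*, 0.47 for *Mthfd2*, 0.24 for *Mthfd1l* and 0.87 for *Tyms*. In the smaller experiment alone the call was lost for *Phgdh* (0.56), *Shmt1* (0.51), *Mthfd1* (0.67) and *Mthfd1l* (0.051). The shares of cells in S and G2/M phase differed between treated and untreated mice at 48 h and overlapped at 72 h. The contrast was not tested within phases.

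In 4 groups, 1 mouse lay far from the others. Treated 72 h mouse E3 had 72.5 CPM of *Psat1*, with the next mouse at 89.1 CPM. Treated 72 h mouse E2 had 60.4 CPM of *Mthfd1*, with the next at 48.5 CPM. Untreated 72 h mouse M18 had 93.8 CPM of *Tyms*, with the next at 77.1 CPM, and without it the log2 difference of *Tyms* at 72 h was no longer called. CDK2 low mouse M3 had 73.5 CPM of *Mthfd2*, with the next at 61.3 CPM. Of 63 groups looked at, 4 had such a mouse, and chance gives about 1 in 20.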

How the results depend on the processing

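Leaving out single mice changed the number of members called from 0 to between 0 and 4 (day 10 against day 7), from 3 to between 0 and 3 (treatment at 72 h) and from 0 to between 0 and 1 (first experiment, day 10 against day 7), and kept 7 to 9 members called for treatment at 48 h and 9 for the fall from 48 h to 72 h, the difference of effects and CDK2. Genes called ran from 6 to 22 for day 9 against day 7, and in the first experiment from 7 to 82 for day 10 against day 7 and from 55 to 235 for treatment. Without the replicate block by mouse, CDK2 high against low called 7052 genes in place of 7770 and still 9 members. For the other values below the cause was not tested. Phases hold fewer cells and the smaller experiment fewer mice, and the part of this was not tested either. At 48 h the members' median log2 difference was 0.39 in all cells and 0.19, 0.041 and 0.26 in G1, S and G2/M cells.

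Members called at 48 h were 8, and 1, 1 and 4 in G1, S and G2/M cells and 5 in the smaller experiment. Those at 72 h were 3, and 0 with cells of equal weight (limma), with no experiment term or in the smaller experiment, and 5 with the compared groups alone. Those of day 10 against day 7 were 0, and 2 with DESeq2 and 1 with equal weight or no gene filter. From 48 h to 72 h they were 9 and in G1 cells 0, the difference of effects had 9 and in the smaller experiment 5, and the first experiment at day 10 against day 7 had 0 and without the gene filter 1.

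Genes called in all were, for treatment at 48 h, 4855, with 736, 1055 and 1618 in G1, S and G2/M cells, 2680 with no experiment term and 2149 in the smaller experiment, and at 72 h 889, with 217 and 22 in the latter pair. From 48 h to 72 h they were 5025, with 476, 2291 and 2617 by phase, 3104 with no term and 2661 in the smaller experiment. The difference of effects had 3223, with 1924 in B1-8hi cells, 1222 with no term and 768 in the smaller experiment. Day 10 against day 7 had 406, with 77 with no term, 256 with the compared groups alone and 3 in the smaller experiment. Day 9 against day 7 had 14, with 5 in B1-8hi cells or with no term, 25 with DESeq2, 31 with equal weight and 0 in the smaller experiment. CDK2 high against low had 4631 in G2/M cells. The first experiment had 59 at day 10 against day 7, with 1 in B1-8hi cells, 35 with DESeq2, 28 with equal weight, 116 without the gene filter and 101 with the compared groups alone, and 177 for treatment, with 27, 100, 93 and 280 in the former 4 settings.

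Log2 differences that changed sign were mostly near 0 outside the phase fits, and several within the phase fits were not. In phases they were *Psph* for CDK2 in G2/M cells (-0.26), at 48 h *Mthfd1l* (-0.12 in G1, -0.11 in S), *Mthfd2* (-0.0042 in G1) and *Shmt1* (-0.18 in G1, -0.16 in S), and from 48 h to 72 h *Mthfd1* (0.25), *Mthfd1l* (0.33), *Mthfd2* (0.19), *Psph* (0.056) and *Shmt1* (0.34) in G1 and *Mthfd1l* (0.063) in S. At 72 h they were *Mthfd1l* (0.045), *Mthfd2* (0.0063) and *Psat1* (0.0075) with equal weight and *Psph* (-0.049 in B1-8hi cells, -0.012 in the larger experiment, -0.00047 with no term, and -0.011 to 0.046 over single mice left out). Without treatment they were *Mthfd2* at day 10 (0.0040 in B1-8hi cells, 0.096 in the smaller experiment, and -0.068 to 0.013 over mice left out) and, at day 9, *Mthfd2* (0.042 in B1-8hi cells, 0.00070 with DESeq2, 0.0031 by highest hashtag, 0.0011 without the gene filter, 0.11 in the smaller experiment, -0.051 to 0.037 over mice left out), *Psat1* (-0.063 with equal weight, -0.020 to 0.068 over mice left out), *Psph* (0.028 in B1-8hi cells, 0.012 in the smaller experiment, -0.11 to 0.0058 over mice left out) and *Tyms* (-0.096 with equal weight, -0.065 in the larger experiment, -0.016 to 0.075 over mice left out). In the first experiment they were *Phgdh* (-0.16), *Psat1* (0.11) and *Tyms* (-0.046) in B1-8hi cells and *Shmt2* (-0.0017 to 0.20 over mice left out) at day 10, and for treatment *Mthfd1* (-0.014 with equal weight), *Mthfd2* (-3.0e-06) and *Phgdh* (-0.0012) by highest hashtag, *Shmt2* (0.34 in B1-8hi cells, 0.0037 with DESeq2, 0.12 with equal weight, 0.0011 without the gene filter) and *Tyms* (0.20 in B1-8hi cells, 0.18 with equal weight). Over mice left out, treatment in the first experiment ran from -0.060 to 0.097 for *Mthfd2*, -0.053 to 0.14 for *Shmt2*, -0.18 to 0.11 for *Mthfd1l* and -0.16 to 0.030 for *Tyms*.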

Other observations

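Across the 39 mice of the time course, with the mean of each experiment removed, the 36 pairs of members had Pearson r of log2 CPM from 0.48 to 0.93, with a median of 0.82. This describes mice that share groups and libraries, and no test was made.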
